A study of Mus musculus with 9 samples.

Results

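The 57 genes described here copy DNA: they license origins, fire them, build the replisome, supply nucleotides, protect the fork and switch on the S phase programme. They were chosen by symbol, and each of the 57 symbols matched 1 of the 53379 gene IDs of the deposited table. All 57 were among the 17760 genes that passed the filter on low counts. RNA was read in GFP+ cells that were sorted by FACS from C57BL/6 mouse cortex at E15.5, after short hairpin RNAs (shRNAs) had been electroporated into the embryos at E13.5. In the circSlc45a4 knockdown (circ KD) 3 shRNAs targeted circSlc45a4, a circular RNA of the Slc45a4 locus. In the Slc45a4 mRNA knockdown (mRNA KD) 2 shRNAs targeted the linear mRNA, and scramble carried 1 scrambled sequence. Each group had 3 libraries, called biological replicates by the submitters, of polyA RNA from cells that all carried GFP. The labels do not say how many embryos or litters went into a library. The p-values judge group differences against the spread between these libraries, which may differ from that between embryos. Circular RNAs lack polyA tails, and the level of circSlc45a4 itself was not measured here.

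Before S phase, the origin recognition complex (ORC), CDC6 and CDT1 load the MCM2-7 hexamer onto DNA, and geminin holds CDT1 back so that an origin is licensed only once per cycle. The CDC7-DBF4 kinase, MCM10, CDC45 and the GINS complex then turn MCM2-7 into the active CMG helicase, behind which primase, polymerases, the PCNA clamp, its loader RFC and the single-strand binding protein RPA copy both strands. Many of these genes are targets of E2F transcription factors, which are released from the retinoblastoma protein late in G1. In the embryonic cortex, dividing cells are apical progenitors at the ventricle and basal progenitors above them, while neurons have left the cycle. A sorted pool of electroporated cells holds both, and in such bulk RNA fewer cycling cells and less RNA per cycling cell cannot be told apart.

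Total counts ranged from 21073174 to 45469298 per library. The linear Slc45a4 transcript, read as a check of the labels, stood at 25.4, 25.3 and 24.7 CPM in circ KD, 13.2, 18.5 and 17.4 CPM in mRNA KD and 31.3, 33.6 and 33.9 CPM in scramble. It was called lower in both knockdowns (edgeR quasi-likelihood test). The log2 fold change was -0.39 ± 0.12 (adjusted p = 0.0245) in circ KD and -1.01 ± 0.12 (adjusted p = 1.08e-04) in mRNA KD. The call in circ KD was kept in 12 of 20 alternatives and that in mRNA KD in 20. The linear transcript was thus lower in circ KD as well. CPM is a gene's count per 1000000 counts of its library, whose total was scaled by TMM, a factor that evens out composition between libraries. The scramble libraries stood apart from one another in the replication genes. Scramble replicate 1 was the lowest of the 3 scramble libraries in 55 of the 57 genes, and scramble replicate 3 the highest in 54, against 36.8% and 33.4% of all genes tested. The median coefficient of variation of the 57 genes was 11.01% in circ KD, 14.3% in mRNA KD and 17.4% in scramble, where that of all genes tested was 10.7%, 12.5% and 9.93%. mRNA KD replicate 1 was the highest of its group in 52 of the 57 genes (39.4% of all genes). Xist, which coats the X chromosome that female cells silence, was read at 635, 264 and 428 CPM in circ KD and at 1549, 636 and 0.194 CPM in mRNA KD, against 0.239, 0.0648 and 0.0617 CPM in scramble. Xist was thus far higher in 5 of the 6 knockdown libraries than in scramble. Ddx3y, a gene of the Y chromosome, stood at 20.001, 37.1 and 28.5 CPM in circ KD, 0, 21.9 and 39.1 CPM in mRNA KD and 41.5, 38.03 and 28.3 CPM in scramble. The library with no Ddx3y count is mRNA KD replicate 1, the one that was highest of its group in 52 of the 57 genes. The sex of the embryos and the groups cannot be fully told apart, and results with the Xist level as a covariate are given below. Pola1 is the only one of the 57 genes on the X chromosome.

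The promoters of the 57 genes were read for the letters that E2F factors bind. RefSeq start sites on GRCm38.p6 were matched for 47 of the 57 genes, with 250 bases before and 50 after each start. The E2F letters TTTCGCGC, TTTGGCGC, TTTCCCGC or TTTGCCGC, read on both strands, were found at the first listed start of 15 of these 47 genes (31.9%) and of 626 of 27025 genes in all (2.32%). Counted over both strands, 2 or more matches were found in 5 of the 47 (10.6%) and in 27 of all 27025 genes (0.0999%). Overlapping matches on opposite strands were counted as 2. CCAAT was found in 57.4% of the 47 and 37.9% of all genes, and TTTGAA or TTTAAA, the letters of the cell cycle homology region (CHR), in 23.4% and 27.8%. The median GC content was 63.0% in the 47 promoters and 52.7% over all. E2F letters stood at 7 of 23 matched genes that fell in circ KD and at 8 of 22 that were not called there. A match is a description of these letters and not a bound site. The windows below show such matches at genes from several steps, with the E2F letters in capitals and 10 bases on either side. Mcm6 and Mcm7 each have a pair of windows, in Mcm5 and in the first Mcm6 window matches on both strands overlap into 1 longer run, in Rfc3 a pair of matches is 2 bases apart, and the second Mcm7 match shares letters with a CCAAT. The Lig1 window is at the second of its 3 listed starts.
Orc1, chr4:108579417-108579444, plus strand: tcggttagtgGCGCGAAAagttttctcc
Cdc6, chr11:98908003-98908030, plus strand: ccggtggagaGCGGGAAAtcgcctgggg
Cdt1, chr8:122568037-122568064, plus strand: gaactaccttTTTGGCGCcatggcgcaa
Mcm5, chr8:75109346-75109377, plus strand: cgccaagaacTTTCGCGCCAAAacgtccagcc
Mcm6, chr1:128359794-128359825, minus strand: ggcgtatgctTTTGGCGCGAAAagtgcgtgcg
Mcm6, chr1:128359735-128359762, minus strand: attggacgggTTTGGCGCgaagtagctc
Mcm7, chr5:138172031-138172058, minus strand: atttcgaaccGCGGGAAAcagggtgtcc
Mcm7, chr5:138171850-138171877, minus strand: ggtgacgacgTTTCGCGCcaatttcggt
Gins3, chr8:95633508-95633535, plus strand: cgagtgcggcGCGGGAAAgcgagtttga
Rfc3, chr5:151651191-151651228, minus strand: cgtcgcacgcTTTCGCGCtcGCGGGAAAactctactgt
Pola1, chrX:93632276-93632303, minus strand: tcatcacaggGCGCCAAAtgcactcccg
Lig1, chr7:13278842-13278869, plus strand: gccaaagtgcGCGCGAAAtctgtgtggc
Clspn, chr4:126556991-126557018, plus strand: ccgcgtctggGCGCGAAAgctcgaactt
E2f7, chr10:110745231-110745258, plus strand: ccgcgtccccGCGGGAAAcgctcccgcg

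Rpa2 and Ung, which rose and fell the most of the 57 genes in circ KD, had none of the E2F letters in these 300 bases. Their promoters are shown whole for contrast with the windows above. Capitals mark CCAAT, here as ATTGG on the other strand, which is found at 3 places in the Rpa2 promoter and nowhere in that of Ung.
Rpa2, chr4:132768110-132768409, plus strand: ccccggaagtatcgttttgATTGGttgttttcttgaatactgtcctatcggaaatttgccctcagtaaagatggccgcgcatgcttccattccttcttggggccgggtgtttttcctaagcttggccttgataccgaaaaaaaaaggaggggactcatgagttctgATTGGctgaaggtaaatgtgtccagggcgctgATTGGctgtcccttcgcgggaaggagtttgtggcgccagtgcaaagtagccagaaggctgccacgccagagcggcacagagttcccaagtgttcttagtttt
Ung, chr5:114130185-114130484, plus strand: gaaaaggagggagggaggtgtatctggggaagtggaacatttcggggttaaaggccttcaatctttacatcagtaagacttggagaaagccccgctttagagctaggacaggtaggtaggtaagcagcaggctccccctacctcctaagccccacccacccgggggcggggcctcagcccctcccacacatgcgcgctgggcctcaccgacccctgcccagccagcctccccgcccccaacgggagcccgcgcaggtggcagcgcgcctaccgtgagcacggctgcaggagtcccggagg

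More replication genes fell than rose in circ KD, more rose than fell in mRNA KD, and the knockdowns differed from each other in most of them. In circ KD 26 of 57 genes fell and 3 rose, where 13.0% of all genes tested fell and 14.1% rose (edgeR quasi-likelihood test, Benjamini-Hochberg adjusted p under 0.05 over all 17760 genes). In mRNA KD 16 rose and 2 fell, against 8.92% and 9.09% of all genes. Circ KD was lower than mRNA KD in 51 of the 57 genes and higher in 1, where 12.3% and 13.8% of all genes were called. The median log2 fold change of the 57 genes was -0.44, 0.31 and -0.79 in these 3 comparisons, and that of all genes lay between -0.02 and 0.01. The comparisons with scramble share the same 3 scramble libraries, so their values are given side by side. By group means, 45 of the 57 genes stood lowest in circ KD and highest in mRNA KD, with scramble between. The mean level of the 57 genes, as log2(CPM + 0.5), was 4.57 to 4.77 in circ KD, 5.24 to 5.56 in mRNA KD and 4.73 to 5.26 in scramble. The knockdowns did not overlap each other, and each overlapped scramble. In single genes, circ KD and scramble did not overlap in 21 lower and 3 higher genes (21.3% and 22.6% of all genes tested), and mRNA KD and scramble in 20 higher and 2 lower genes (17.7% and 18.4%). Over both directions, groups did not overlap in 43.9% of all genes for circ KD and scramble, in 36.1% for mRNA KD and scramble and in 40.1% for the 2 knockdowns.

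How many genes passed the threshold depended on single libraries. The 26 genes lower in circ KD became 35 without scramble replicate 1, 16 without scramble replicate 2, 11 without scramble replicate 3, 13 without circ KD replicate 1 and 16 without its replicate 2. The 16 genes higher in mRNA KD became 10 without scramble replicate 1 and 8 without scramble replicate 2. Between the knockdowns the count of 51 stayed between 44 and 51 whichever library was left out. With the Xist level as a covariate the calls left against scramble were Rpa2, Dna2, Tyms, Dut, Ung and E2f1 in circ KD and Rpa2 and Rfc4 in mRNA KD, and every other call of the 57 genes against scramble named below ended in that fit. Xist nearly follows the groups, at 264 to 635 CPM in circ KD and at most 0.239 CPM in scramble. Only in mRNA KD did it differ widely within a group, where replicate 3 stood at 0.194 CPM. The fit thus has little power against scramble, and a call that ended in it cannot be read as an effect of sex.

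**Figure D1:**
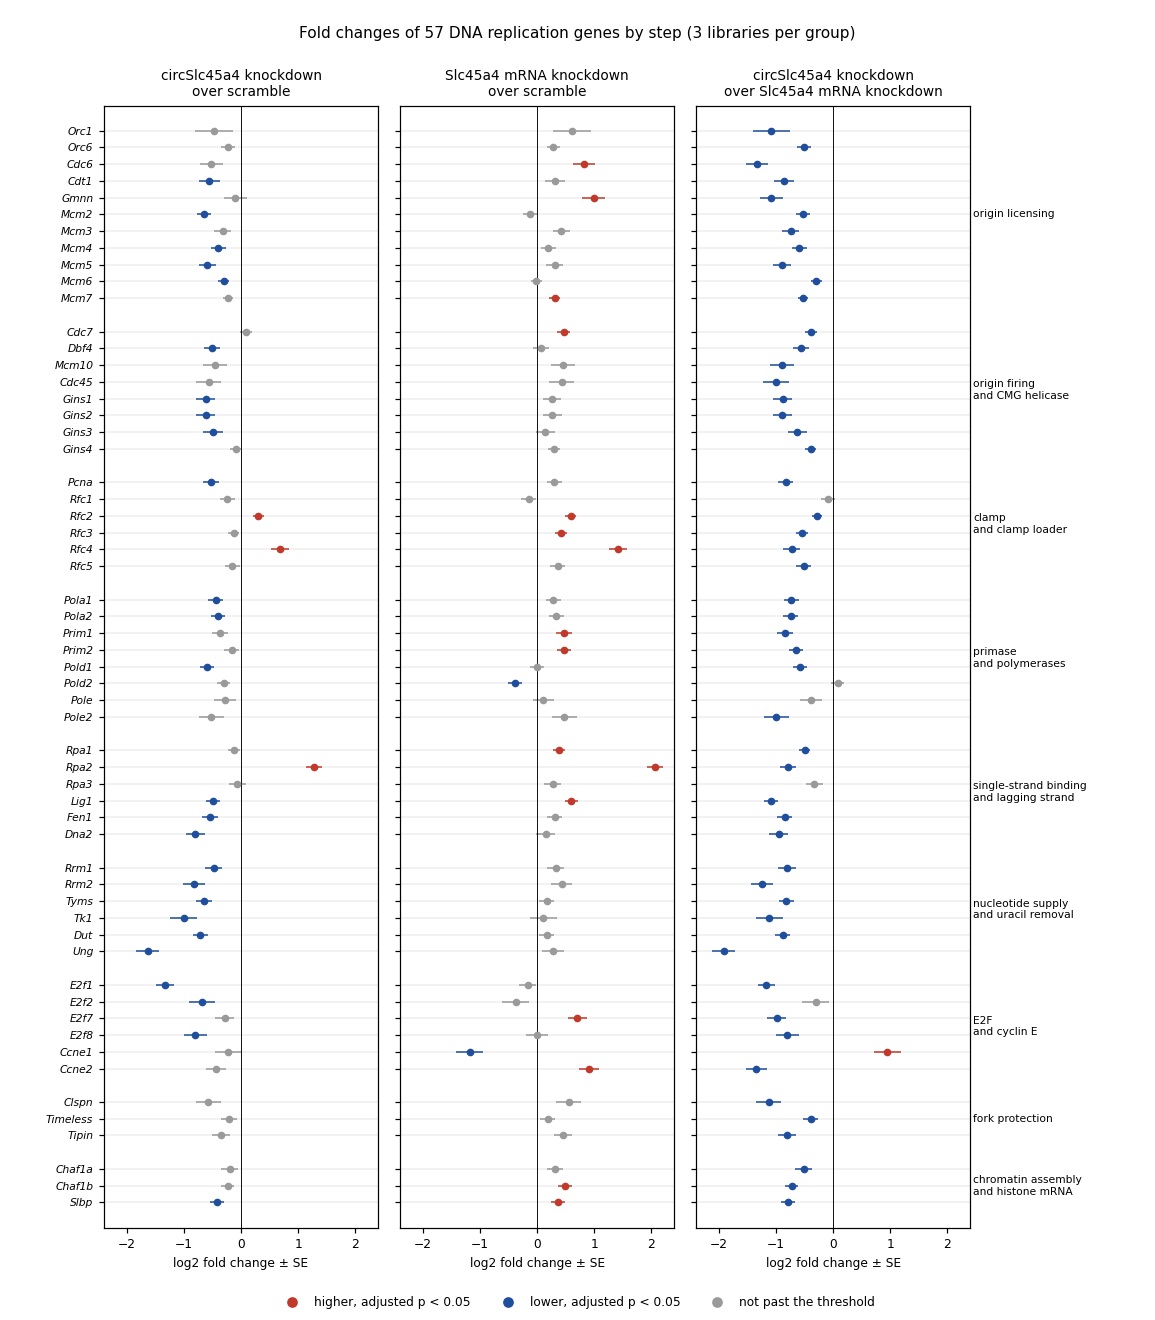
Log2 fold change with its standard error (horizontal axis) of each of the 57 replication genes, ordered by step, for circ KD over scramble, mRNA KD over scramble and circ KD over mRNA KD. Red and blue mark genes higher and lower at an adjusted p under 0.05: 3 and 26 in the left panel, 16 and 2 in the middle panel and 1 and 51 in the right panel.

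**Figure D2:**
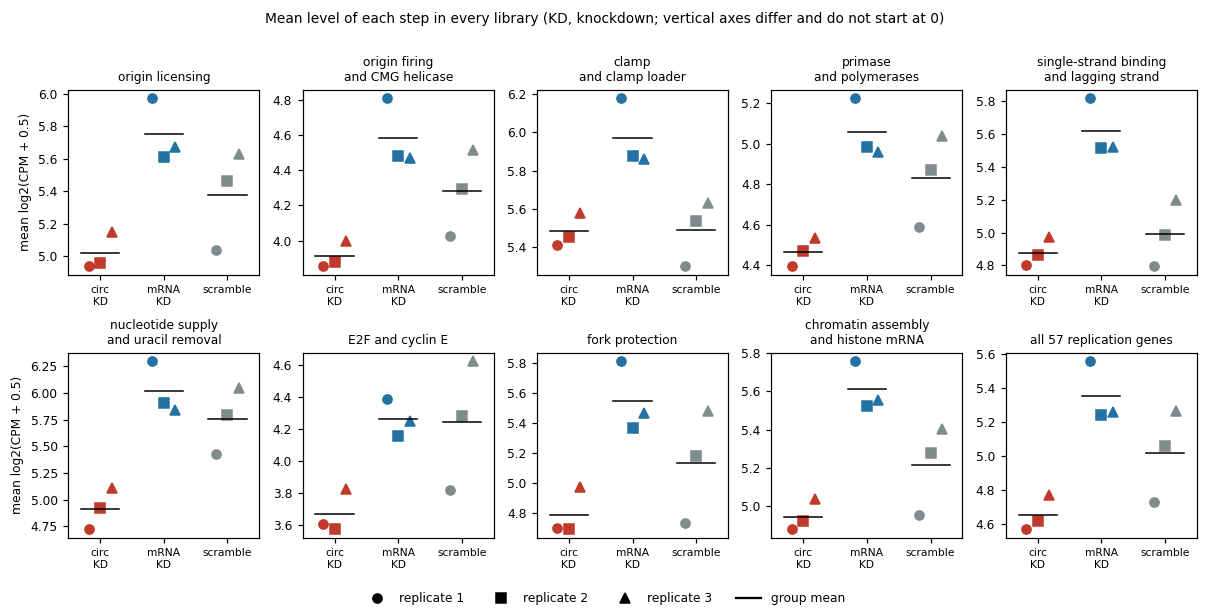
Mean log2(CPM + 0.5) of the genes of each step in every library, with a point per library and a line at the group mean; the vertical axes differ and do not start at 0. For all 57 genes circ KD libraries lie at 4.57 to 4.77, mRNA KD libraries at 5.24 to 5.56 and the scramble libraries at 4.73 to 5.26, and scramble replicate 1 is the lowest scramble library in every panel.

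Origin licensing genes fell in circ KD in 5 of 11 cases (Mcm2, Mcm4, Mcm5, Mcm6 and Cdt1), and none rose. In mRNA KD 3 of the 11 rose (Cdc6, Gmnn and Mcm7), and none fell. The median log2 fold change was -0.40 in circ KD and 0.31 in mRNA KD. Values of replicates 1, 2 and 3 are given in that order. Mcm2, a subunit of the MCM2-7 helicase, stood at 69.9, 77.6 and 82.4 CPM in circ KD, 112.1, 108.6 and 111.6 CPM in mRNA KD and 91.9, 130.6 and 138.3 CPM in scramble. All 3 circ KD libraries were below all 3 of scramble (log2 fold change -0.65 ± 0.12, adjusted p = 0.00185), and mRNA KD overlapped scramble at -0.12 ± 0.12 (adjusted p = 0.548). Mcm5, another subunit of that ring, stood at 42.9, 47.5 and 55.9 CPM in circ KD, 101.7, 84.97 and 85.5 CPM in mRNA KD and 54.95, 75.9 and 88.6 CPM in scramble. It fell in circ KD (log2 fold change -0.59 ± 0.15, adjusted p = 0.0112), although its highest library there was just above scramble replicate 1, and the log2 fold change in mRNA KD was 0.31 ± 0.15 (adjusted p = 0.174). The call for Mcm5 ended without circ KD replicate 1 (-0.50) or scramble replicate 3 (-0.43). Cdt1, which brings MCM2-7 to the origin, stood at 15.8, 17.1 and 17.001 CPM in circ KD, 34.1, 25.6 and 31.1 CPM in mRNA KD and 16.8, 25.2 and 30.9 CPM in scramble. Circ KD was lower than scramble (log2 fold change -0.55 ± 0.18, adjusted p = 0.034), where the low scramble replicate 1 lay among the knockdown libraries, and the log2 fold change in mRNA KD was 0.31 ± 0.18 (adjusted p = 0.251). The call for Cdt1 ended without circ KD replicate 1, 2 or 3 (-0.52, -0.58 and -0.57) or scramble replicate 2 or 3 (-0.53 and -0.34).

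Cdc6, the ATPase that loads MCM2-7 together with ORC, stood at 8.63, 7.43 and 8.67 CPM in circ KD, 24.7, 19.2 and 18.6 CPM in mRNA KD and 8.12, 11.7 and 15.4 CPM in scramble. mRNA KD was above scramble in every library (log2 fold change 0.82 ± 0.19, adjusted p = 0.0107), while circ KD overlapped it at -0.52 ± 0.20 (adjusted p = 0.0667). Gmnn, which encodes the CDT1 inhibitor geminin, stood at 8.92, 11.4 and 12.1 CPM in circ KD, 30.1, 20.7 and 18.05 CPM in mRNA KD and 8.84, 11.8 and 13.9 CPM in scramble. It rose in mRNA KD (log2 fold change 0.99 ± 0.20, adjusted p = 0.00479) with no overlap, and in circ KD its libraries lay within those of scramble (-0.10 ± 0.20, adjusted p = 0.762). The ratio of Cdt1 to Gmnn within a library, compared between groups, was 1.40 to 1.77 in circ KD, 1.13 to 1.72 in mRNA KD and 1.90 to 2.23 in scramble. Both knockdowns thus lay below every scramble library in this ratio. Ratios within a library, here and below, are given as descriptions without a test. Mcm7 stood at 165.6, 164.5 and 186.7 CPM in circ KD, 263.6, 234.3 and 249.02 CPM in mRNA KD and 177.1, 210.6 and 215.8 CPM in scramble. The rise in mRNA KD was called (log2 fold change 0.31 ± 0.09, adjusted p = 0.0339) without overlap, and the log2 fold change in circ KD was -0.22 ± 0.09 (adjusted p = 0.0874). The call for Mcm7 ended without circ KD replicate 1 or 2 (0.30 and 0.30), mRNA KD replicate 1 or 3 (0.27 and 0.31) or scramble replicate 1 or 2 (0.22 and 0.34). Of the other licensing genes, Mcm4 and Mcm6 fell in circ KD by small amounts (log2 fold changes -0.40 and -0.31, adjusted p = 0.0407 and 0.0368). The 2 calls ended without circ KD replicate 1 (-0.34 and -0.25) or 2 (-0.33 and -0.32), mRNA KD replicate 3 (-0.39 and -0.30), or scramble replicate 2 (-0.36 and -0.27) or 3 (-0.31 and -0.22), and that of Mcm6 also without mRNA KD replicate 2 (-0.30). Mcm3, Orc1 and Orc6 were not called in either knockdown, with log2 fold changes of -0.32, -0.47 and -0.23 in circ KD and of 0.43, 0.61 and 0.28 in mRNA KD.

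Among the 8 genes of origin firing and the CMG helicase, 4 fell in circ KD (Dbf4, Gins1, Gins2 and Gins3) and none rose, with a median log2 fold change of -0.50. In mRNA KD only Cdc7 of the 8 was called, and it rose. Dbf4, the subunit that activates the CDC7 kinase, stood at 31.3, 28.3 and 30.6 CPM in circ KD, 54.97, 39.1 and 39.8 CPM in mRNA KD and 36.2, 41.6 and 50.2 CPM in scramble. All circ KD libraries were below scramble (log2 fold change -0.51 ± 0.14, adjusted p = 0.0185), and mRNA KD overlapped it at 0.06 ± 0.14 (adjusted p = 0.805). The call for Dbf4 ended without circ KD replicate 2 (-0.47) or scramble replicate 3 (-0.37). Cdc7, the kinase itself, stood at 32.6, 33.2 and 32.8 CPM in circ KD, 48.6, 39.5 and 40.4 CPM in mRNA KD and 28.4, 29.99 and 34.7 CPM in scramble. mRNA KD was higher than scramble (log2 fold change 0.46 ± 0.11, adjusted p = 0.00917), where no library overlapped scramble, and the log2 fold change in circ KD was 0.08 ± 0.11 (adjusted p = 0.615). The call for Cdc7 ended without scramble replicate 2 (0.44). Gins1, a subunit of GINS, stood at 10.3, 12.3 and 12.7 CPM in circ KD, 25.02, 20.3 and 19.6 CPM in mRNA KD and 14.1, 17.2 and 22.5 CPM in scramble. It fell in circ KD without overlap (log2 fold change -0.62 ± 0.17, adjusted p = 0.0141), and the log2 fold change in mRNA KD was 0.26 ± 0.16 (adjusted p = 0.292). The call for Gins1 ended without circ KD replicate 1 (-0.53) or scramble replicate 3 (-0.42).

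Gins2 stood at 5.79, 5.76 and 7.98 CPM in circ KD, 12.8, 11.2 and 12.2 CPM in mRNA KD and 8.41, 11.5 and 10.1 CPM in scramble. Circ KD was again below every scramble library (log2 fold change -0.62 ± 0.16, adjusted p = 0.0136), and the value in mRNA KD was 0.27 ± 0.16 (adjusted p = 0.279). Exons of Gse1 on the other strand cover 67.3% of the exon bases of Gins2, and without a stated strand setting their reads cannot be told apart. The call for Gins2 ended without circ KD replicate 1 or 2 (-0.54 and -0.54) or scramble replicate 2 (-0.50). Gins4 stood at 22.5, 21.5 and 23.2 CPM in circ KD, 30.3, 31.4 and 26.4 CPM in mRNA KD and 24.99, 23.2 and 23.7 CPM in scramble. Its libraries in mRNA KD were all above scramble, but the change of 0.29 ± 0.10 (adjusted p = 0.0559) was not called, and circ KD had -0.10 ± 0.10 (adjusted p = 0.513). Mcm10, which helps to activate the helicase, stood at 11.3, 10.4 and 11.8 CPM in circ KD, 25.3, 17.98 and 19.3 CPM in mRNA KD and 9.60, 15.8 and 19.995 CPM in scramble. Both knockdowns overlapped the wide scramble range, at -0.45 ± 0.21 (adjusted p = 0.136) in circ KD and 0.45 ± 0.21 (adjusted p = 0.154) in mRNA KD. Gins3 fell in circ KD with a log2 fold change of -0.49 ± 0.17 (adjusted p = 0.0452), a call that ended whichever of circ KD or scramble libraries was left out (log2 fold changes -0.54 to -0.40). That call was kept in 9 of 20 alternatives, and also ended with limma-voom or a replicate block. Cdc45, the third part of the CMG helicase, was not called, at -0.57 in circ KD and 0.43 in mRNA KD.

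The PCNA clamp and its loader did not move as 1 block. Pcna fell in circ KD, while the loader subunits Rfc2 and Rfc4 rose in both knockdowns and Rfc3 rose in mRNA KD. Pcna, which encodes the ring that holds polymerases on DNA, stood at 114.3, 137.7 and 150.6 CPM in circ KD, 272.2, 232.9 and 212.4 CPM in mRNA KD and 157.7, 194.8 and 228.8 CPM in scramble. All 3 circ KD libraries were below scramble (log2 fold change -0.53 ± 0.14, adjusted p = 0.0117), and in mRNA KD 1 library was within the scramble range (0.30 ± 0.14, adjusted p = 0.146). The call for Pcna ended without circ KD replicate 1 (-0.43) or scramble replicate 3 (-0.39). Rfc4 (ENSMUSG00000022881.14, chromosome 16, 23113943 to 23127737, minus strand), a subunit of the loader that opens the clamp, stood at 23.2, 25.2 and 29.2 CPM in circ KD, 54.9, 37.9 and 35.5 CPM in mRNA KD and 14.7, 15.97 and 17.5 CPM in scramble. Both knockdowns were above scramble in every library, by 0.69 ± 0.16 (adjusted p = 0.00584) in circ KD and 1.41 ± 0.16 (adjusted p = 6.95e-05) in mRNA KD. Exons of Eif4a2 on the other strand cover 12.7% of its exon bases. Rfc2 stood at 53.8, 49.7 and 52.1 CPM in circ KD, 65.9, 65.4 and 57.9 CPM in mRNA KD and 37.3, 43.1 and 45.3 CPM in scramble. The 3 groups did not overlap one another, with 0.31 ± 0.09 (adjusted p = 0.0269) in circ KD and 0.59 ± 0.09 (adjusted p = 8.65e-04) in mRNA KD. Exons of Lat2 on the other strand cover 15.1% of the exon bases of Rfc2. Its call in circ KD ended without circ KD replicate 1 or 3 (0.28 and 0.30) or scramble replicate 1 or 2 (0.23 and 0.33). Rfc3 stood at 37.1, 34.97 and 36.2 CPM in circ KD, 59.99, 50.2 and 48.1 CPM in mRNA KD and 36.99, 38.9 and 42.6 CPM in scramble. It rose in mRNA KD (log2 fold change 0.42 ± 0.10, adjusted p = 0.0113), and circ KD lay within or just below scramble at -0.13 ± 0.10 (adjusted p = 0.365). The call for Rfc3 ended without scramble replicate 2 (0.40). The ratio of Rfc4 to Rfc3 within a library was 0.626 to 0.807 in circ KD and 0.739 to 0.916 in mRNA KD, against 0.397 to 0.411 in scramble. Rfc1 and Rfc5 were called in neither knockdown, at -0.24 and -0.15 in circ KD and -0.15 and 0.36 in mRNA KD.

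Primase and the replicative polymerases had 3 of 8 genes lower in circ KD (Pola1, Pola2 and Pold1), and 2 higher (Prim1 and Prim2) and 1 lower (Pold2) in mRNA KD. Pola1, the catalytic subunit of polymerase alpha, stood at 20.2, 19.5 and 24.6 CPM in circ KD, 41.7, 30.9 and 33.99 CPM in mRNA KD and 27.1, 28.1 and 32.1 CPM in scramble. Circ KD was below scramble in every library (log2 fold change -0.44 ± 0.13, adjusted p = 0.0236), and mRNA KD overlapped scramble at 0.29 ± 0.13 (adjusted p = 0.151). The call for Pola1 ended without circ KD replicate 1 or 2 (-0.40 and -0.38) or scramble replicate 2 or 3 (-0.47 and -0.37). Pola2, the accessory subunit of that enzyme, stood at 18.8, 20.98 and 19.03 CPM in circ KD, 33.3, 33.1 and 32.03 CPM in mRNA KD and 20.2, 28.3 and 29.2 CPM in scramble. Circ KD was lower than scramble (log2 fold change -0.41 ± 0.13, adjusted p = 0.0316) with 1 scramble library among those of the knockdown, and mRNA KD, although above every scramble library, missed the threshold (0.34 ± 0.13, adjusted p = 0.0832). The call for Pola2 ended without circ KD replicate 1 or 3 (-0.38 and -0.38) or scramble replicate 2 or 3 (-0.34 and -0.31). Pold1, the catalytic subunit of polymerase delta, stood at 34.2, 31.6 and 27.2 CPM in circ KD, 45.7, 49.9 and 43.8 CPM in mRNA KD and 38.8, 47.6 and 53.3 CPM in scramble. It fell in circ KD without overlap (log2 fold change -0.59 ± 0.12, adjusted p = 0.00301), and mRNA KD lay within the scramble range (-0.01 ± 0.12, adjusted p = 0.98).

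Prim1, the catalytic subunit of primase, stood at 26.97, 33.2 and 33.6 CPM in circ KD, 68.2, 51.6 and 48.7 CPM in mRNA KD and 35.6, 41.1 and 44.5 CPM in scramble. The groups did not overlap one another, and the rise in mRNA KD was called (log2 fold change 0.47 ± 0.14, adjusted p = 0.029), while the lower value in circ KD was not (-0.37 ± 0.14, adjusted p = 0.0601). The call for Prim1 ended without mRNA KD replicate 1 (0.31) or scramble replicate 1 or 2 (0.39 and 0.49). Prim2, the large primase subunit, stood at 22.3, 20.3 and 24.5 CPM in circ KD, 40.5, 33.7 and 30.7 CPM in mRNA KD and 22.7, 24.9 and 27.6 CPM in scramble. The rise in mRNA KD was called without overlap (log2 fold change 0.48 ± 0.12, adjusted p = 0.0172), and the log2 fold change in circ KD was -0.17 ± 0.12 (adjusted p = 0.356). The call for Prim2 ended without mRNA KD replicate 1 (0.36) or scramble replicate 1 or 2 (0.41 and 0.47). Pold2, an accessory subunit of polymerase delta, stood at 27.8, 27.5 and 27.6 CPM in circ KD, 27.4, 26.3 and 24.5 CPM in mRNA KD and 27.6, 36.4 and 37.95 CPM in scramble. It was the gene of this step that fell in mRNA KD (log2 fold change -0.39 ± 0.12, adjusted p = 0.0359), with all libraries below scramble, and the log2 fold change in circ KD was -0.30 ± 0.12 (adjusted p = 0.0688). The call for Pold2 ended without mRNA KD replicate 2 or 3 (-0.39 and -0.34) or scramble replicate 2 or 3 (-0.33 and -0.30). Pole and Pole2, subunits of polymerase epsilon, were called in neither, at -0.28 and -0.52 in circ KD and 0.11 and 0.48 in mRNA KD.

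The single-strand binding and lagging-strand genes held the highest rise of the 57 genes in both knockdowns, that of Rpa2, beside 3 genes that fell in circ KD (Lig1, Fen1 and Dna2). Rpa2 (ENSMUSG00000028884.14, chromosome 4, 132768332 to 132778752, plus strand), the middle subunit of the RPA trimer that coats single-stranded DNA, stood at 20.6, 21.2 and 22.97 CPM in circ KD, 40.8, 33.97 and 37.1 CPM in mRNA KD and 7.84, 7.61 and 11.1 CPM in scramble. The groups lay far apart, at 21.6 ± 1.25 CPM in circ KD and 37.3 ± 3.44 CPM in mRNA KD against 8.84 ± 1.94 CPM in scramble (mean ± SD, n = 3 each). The log2 fold changes were 1.28 ± 0.14 (adjusted p = 3.21e-05) and 2.07 ± 0.14 (adjusted p = 2.79e-06), and both calls stayed under all 20 alternatives. Rpa1, the large subunit of the same trimer, stood at 52.003, 52.6 and 61.1 CPM in circ KD, 87.8, 71.7 and 75.01 CPM in mRNA KD and 54.6, 61.1 and 63.97 CPM in scramble. mRNA KD was higher than scramble (log2 fold change 0.38 ± 0.10, adjusted p = 0.0197), where no library overlapped scramble, and the log2 fold change in circ KD was -0.12 ± 0.10 (adjusted p = 0.424). The call for Rpa1 ended without mRNA KD replicate 1 (0.29) or scramble replicate 1 or 2 (0.32 and 0.40). The trimer's genes therefore did not keep their proportions: the ratio of Rpa2 to Rpa1 within a library was 0.376 to 0.403 in circ KD and 0.465 to 0.494 in mRNA KD, against 0.125 to 0.173 in scramble. Rpa3, the small subunit, was not called, at -0.06 in circ KD and 0.27 in mRNA KD. No exon of another gene overlaps those of Rpa2 in the annotation used.

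Lig1 (ENSMUSG00000056394.17, chromosome 7, 13277283 to 13311433, plus strand), the ligase that seals Okazaki fragments, stood at 42.5, 41.2 and 52.4 CPM in circ KD, 102.1, 90.6 and 96.9 CPM in mRNA KD and 52.8, 65.9 and 72.02 CPM in scramble. The 3 groups did not overlap, and the gene was called in opposite directions: lower in circ KD (log2 fold change -0.49 ± 0.12, adjusted p = 0.00865) and higher in mRNA KD (log2 fold change 0.60 ± 0.12, adjusted p = 0.00385). Dna2, a nuclease and helicase that trims long flaps, stood at 14.7, 14.2 and 16.5 CPM in circ KD, 37.8, 24.6 and 25.7 CPM in mRNA KD and 22.2, 25.3 and 31.4 CPM in scramble. All circ KD libraries were below scramble (log2 fold change -0.80 ± 0.17, adjusted p = 0.00351), and mRNA KD overlapped scramble at 0.15 ± 0.17 (adjusted p = 0.571). Fen1, the flap nuclease, fell in circ KD (log2 fold change -0.54 ± 0.13, adjusted p = 0.00932), and the log2 fold change in mRNA KD was 0.31 ± 0.13 (adjusted p = 0.13). The antisense gene Gm10143 covers 78.8% of the exon bases of Fen1. The call for Fen1 ended without scramble replicate 3 (-0.40).

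**Figure D3:**
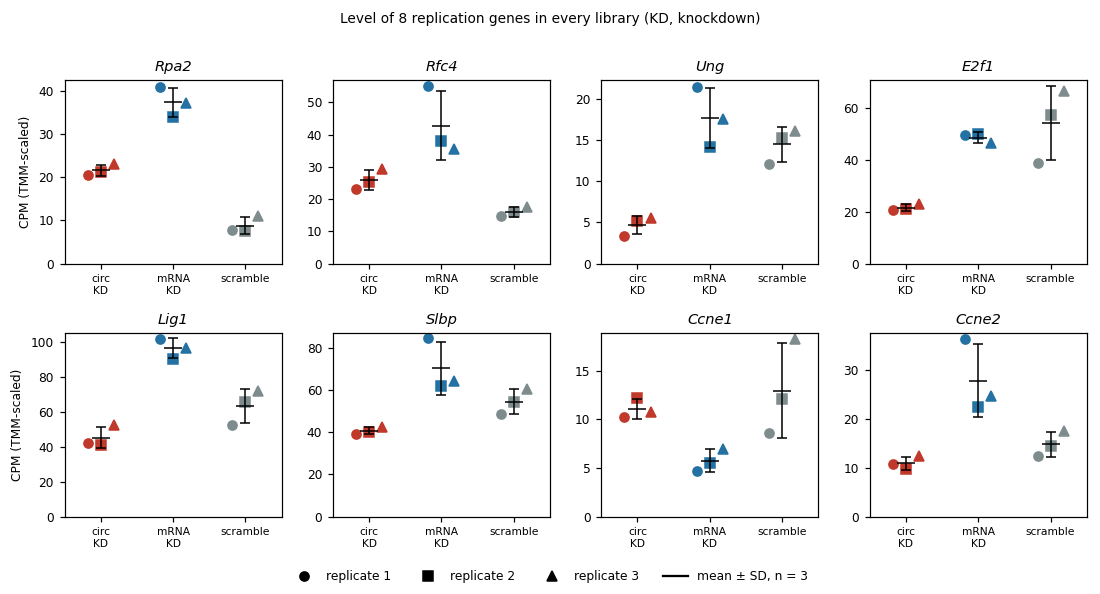
CPM of 8 replication genes in every library (points; circle, square and triangle for replicates 1, 2 and 3), with mean and SD of 3 libraries per group (black); axes start at 0. Rpa2 and Rfc4 lie above scramble in both knockdowns, Ung and E2f1 lie below it in circ KD, Lig1 and Slbp lie below scramble in circ KD and above it in mRNA KD, and Ccne1 and Ccne2 go opposite ways in mRNA KD.

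Nucleotide supply and uracil removal was the step in which all genes tested, 6 of 6, fell in circ KD, with a median log2 fold change of -0.77, and in which none was called in mRNA KD (median 0.23) and none stood apart from scramble. Ung (ENSMUSG00000029591.14, chromosome 5, 114130386 to 114139323, plus strand), the uracil-DNA glycosylase that removes uracil from DNA, stood at 3.42, 5.14 and 5.52 CPM in circ KD, 21.4, 14.1 and 17.5 CPM in mRNA KD and 12.04, 15.3 and 16.1 CPM in scramble. Circ KD averaged 4.69 ± 1.12 CPM against 14.5 ± 2.13 CPM in scramble (mean ± SD, n = 3 each; log2 fold change -1.63 ± 0.20, adjusted p = 7.14e-05), the largest fall of the 57 genes, while mRNA KD overlapped scramble at 0.29 ± 0.19 (adjusted p = 0.331). Dut, the dUTPase that keeps uracil out of the nucleotide pool, stood at 41.1, 51.5 and 47.5 CPM in circ KD, 100.8, 85.9 and 71.4 CPM in mRNA KD and 66.5, 77.6 and 85.2 CPM in scramble. Circ KD was lower than scramble without overlap (log2 fold change -0.71 ± 0.13, adjusted p = 0.00137), and the log2 fold change in mRNA KD was 0.17 ± 0.13 (adjusted p = 0.404). The ratio of Ung to Dut within a library was 0.0831 to 0.116 in circ KD, 0.164 to 0.245 in mRNA KD and 0.181 to 0.197 in scramble. Tyms, the thymidylate synthase that makes dTMP from dUMP, stood at 22.7, 21.04 and 26.1 CPM in circ KD, 49.5, 38.3 and 35.3 CPM in mRNA KD and 32.8, 36.3 and 40.5 CPM in scramble. All circ KD libraries were below scramble (log2 fold change -0.65 ± 0.14, adjusted p = 0.00311), with 0.17 ± 0.13 (adjusted p = 0.429) in mRNA KD.

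Ribonucleotide reductase, which makes deoxynucleotides, was read through both of its subunits. Rrm2, its small subunit, stood at 63.6, 72.4 and 89.2 CPM in circ KD, 220.7, 162.04 and 154.5 CPM in mRNA KD and 95.3, 131.2 and 171.6 CPM in scramble. Circ KD was below scramble in every library (log2 fold change -0.82 ± 0.19, adjusted p = 0.00641), and mRNA KD overlapped it at 0.43 ± 0.19 (adjusted p = 0.137). Rrm1, its large subunit, stood at 100.3, 110.97 and 136.1 CPM in circ KD, 243.1, 185.3 and 180.04 CPM in mRNA KD and 132.3, 159.97 and 191.7 CPM in scramble. It fell in circ KD (log2 fold change -0.48 ± 0.15, adjusted p = 0.0305), with 1 library above scramble replicate 1, and the log2 fold change in mRNA KD was 0.33 ± 0.15 (adjusted p = 0.148). The call for Rrm1 ended without circ KD replicate 1 or 2 (-0.39 and -0.45) or scramble replicate 2 or 3 (-0.48 and -0.34). Tk1, the thymidine kinase of the salvage route, fell in circ KD (log2 fold change -1.01 ± 0.24, adjusted p = 0.00769), and the log2 fold change in mRNA KD was 0.11 ± 0.24 (adjusted p = 0.789).

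The E2F and cyclin E genes split by knockdown. In circ KD 3 of 6 fell (E2f1, E2f2 and E2f8) and none rose, and in mRNA KD E2f7 and Ccne2 rose and Ccne1 fell. E2f1 (ENSMUSG00000027490.17, chromosome 2, 154559407 to 154569892, minus strand), an activating E2F, stood at 20.9, 20.98 and 23.2 CPM in circ KD, 49.7, 50.1 and 46.5 CPM in mRNA KD and 38.99, 57.5 and 66.9 CPM in scramble. Circ KD averaged 21.7 ± 1.30 CPM against 54.5 ± 14.2 CPM in scramble (mean ± SD, n = 3 each; log2 fold change -1.33 ± 0.15, adjusted p = 3.80e-05) with no overlap, and mRNA KD lay within the scramble range at -0.16 ± 0.15 (adjusted p = 0.491). E2f2, another activating E2F, stood at 6.55, 7.73 and 8.87 CPM in circ KD, 10.6, 9.004 and 9.02 CPM in mRNA KD and 7.31, 12.8 and 16.8 CPM in scramble. It fell in circ KD (log2 fold change -0.68 ± 0.23, adjusted p = 0.0442) although scramble replicate 1 lay among the knockdown libraries, and the log2 fold change in mRNA KD was -0.38 ± 0.23 (adjusted p = 0.288). The call for E2f2 ended without circ KD replicate 1 or 2 (-0.58 and -0.68), mRNA KD replicate 2 or 3 (-0.68 and -0.68) or scramble replicate 2 or 3 (-0.65 and -0.39). It was kept in 8 of 20 alternatives, and also ended with limma-voom, only the 6 libraries compared or a replicate block. E2f8, an atypical E2F that represses transcription, stood at 11.4, 8.80 and 12.5 CPM in circ KD, 22.7, 15.53 and 18.9 CPM in mRNA KD and 13.9, 18.8 and 24.3 CPM in scramble. Circ KD was lower than scramble without overlap (log2 fold change -0.80 ± 0.20, adjusted p = 0.00954) and mRNA KD overlapped scramble (log2 fold change -0.0004 ± 0.20, adjusted p = 0.999). The call for E2f8 ended without scramble replicate 3 (-0.59).

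E2f7, the other atypical E2F, stood at 14.4, 12.8 and 18.9 CPM in circ KD, 34.1, 29.2 and 28.4 CPM in mRNA KD and 14.8, 18.7 and 22.6 CPM in scramble. It rose in mRNA KD (log2 fold change 0.70 ± 0.17, adjusted p = 0.0103), where all libraries were above scramble, and the log2 fold change in circ KD was -0.29 ± 0.17 (adjusted p = 0.228). The ratio of E2f7 to E2f1 within a library was 0.609 to 0.814 in circ KD and 0.583 to 0.686 in mRNA KD, above 0.325 to 0.380 in scramble. Ccne1 (ENSMUSG00000002068.16, chromosome 7, 38097984 to 38107534, minus strand), which encodes cyclin E1, a partner of the kinase CDK2 at the entry into S phase, stood at 10.2, 12.2 and 10.8 CPM in circ KD, 4.66, 5.55 and 6.98 CPM in mRNA KD and 8.55, 12.05 and 18.2 CPM in scramble. It fell in mRNA KD below every scramble library (log2 fold change -1.18 ± 0.23, adjusted p = 0.0038), and circ KD lay within scramble at -0.23 ± 0.23 (adjusted p = 0.485). Ccne2 (ENSMUSG00000028212.16, chromosome 4, 11191351 to 11204779, plus strand), which encodes cyclin E2, stood at 10.7, 9.73 and 12.3 CPM in circ KD, 36.2, 22.3 and 24.6 CPM in mRNA KD and 12.4, 14.4 and 17.4 CPM in scramble. It rose in mRNA KD above every scramble library (log2 fold change 0.91 ± 0.18, adjusted p = 0.00394), and circ KD lay below scramble without a call (-0.44 ± 0.18, adjusted p = 0.0948). The cyclin E genes thus moved in opposite directions in mRNA KD: the ratio of Ccne2 to Ccne1 within a library was 0.796 to 1.141 in circ KD and 3.53 to 7.78 in mRNA KD, against 0.956 to 1.45 in scramble. Exons of Ints8 on the other strand cover 17.4% of the exon bases of Ccne2, and none of another gene overlaps Ccne1.

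None of the 3 fork protection genes was called in either knockdown. Clspn, which encodes claspin, the mediator between a stalled fork and the kinase CHK1, stood at 16.8, 16.6 and 22.97 CPM in circ KD, 49.6, 35.9 and 37.8 CPM in mRNA KD and 17.9, 28.1 and 37.7 CPM in scramble. Both knockdowns overlapped scramble, with -0.57 ± 0.22 (adjusted p = 0.0715) in circ KD and 0.55 ± 0.22 (adjusted p = 0.099) in mRNA KD. Tipin, the partner of TIMELESS at the fork, stood at 29.8, 31.03 and 39.01 CPM in circ KD, 71.5, 50.5 and 52.8 CPM in mRNA KD and 33.7, 42.5 and 51.01 CPM in scramble. It too overlapped scramble, at -0.35 ± 0.16 (adjusted p = 0.131) in circ KD and 0.45 ± 0.16 (adjusted p = 0.0708) in mRNA KD. Timeless had log2 fold changes of -0.21 in circ KD and 0.18 in mRNA KD. Of the 3 chromatin genes, Slbp was called in opposite directions. Slbp, which binds the stem-loop of histone mRNAs, stood at 39.3, 40.1 and 42.6 CPM in circ KD, 84.9, 62.03 and 64.3 CPM in mRNA KD and 48.5, 54.4 and 60.3 CPM in scramble. The 3 groups did not overlap, with a fall in circ KD (log2 fold change -0.42 ± 0.12, adjusted p = 0.0194) and a rise in mRNA KD (log2 fold change 0.37 ± 0.12, adjusted p = 0.0474). The fall of Slbp lost its call without circ KD replicate 1 or 2 (-0.40 and -0.41) or scramble replicate 2 or 3 (-0.42 and -0.34). The rise of Slbp lost its call without circ KD replicate 1, 2 or 3 (0.36, 0.36 and 0.37), mRNA KD replicate 1 (0.22) or scramble replicate 1 or 2 (0.29 and 0.37). That rise was kept in 9 of 20 alternatives, and its call also ended with limma-voom, only the 6 libraries compared, a replicate block or a minimum change of 1.2-fold. Chaf1b, a subunit of the CAF-1 complex that places histones behind the fork, stood at 17.99, 19.9 and 23.6 CPM in circ KD, 34.97, 31.999 and 34.9 CPM in mRNA KD and 21.3, 24.4 and 26.6 CPM in scramble. The rise in mRNA KD was called without overlap (log2 fold change 0.49 ± 0.12, adjusted p = 0.0125), and the log2 fold change in circ KD was -0.24 ± 0.12 (adjusted p = 0.169). The call for Chaf1b ended without scramble replicate 1 or 2 (0.41 and 0.50). Chaf1a was not called, at -0.20 in circ KD and 0.32 in mRNA KD, and exons of Ubxn6 on the other strand cover 52.5% of its exon bases.

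The direct comparison of the knockdowns does not use scramble for its fold change, and 5 of the 9 steps were called whole. All genes of licensing (11), origin firing (8), nucleotide supply (6), fork protection (3) and chromatin assembly (3) were lower in circ KD than in mRNA KD, as were 5 of 6 clamp genes, 6 of 8 primase and polymerase genes, 5 of 6 single-strand and lagging-strand genes and 4 of 6 E2F and cyclin E genes. In 52 of the 57 genes every circ KD library was below every mRNA KD library, and in 2 above, against 19.8% and 20.3% of all genes tested. The median by step ran from -0.53 for the clamp and its loader to -0.999 for nucleotide supply. The 5 genes with the smallest p were Ung (-1.92 ± 0.20 (adjusted p = 3.17e-05)), Lig1 (-1.09 ± 0.12 (adjusted p = 4.45e-05)), E2f1 (-1.17 ± 0.15 (adjusted p = 1.46e-04)), Cdc6 (-1.33 ± 0.19 (adjusted p = 3.27e-04)) and Ccne2 (-1.34 ± 0.18 (adjusted p = 1.95e-04)). Against scramble these genes differed: E2f1 and Ung stood below scramble in circ KD and were not called in mRNA KD, Cdc6 and Ccne2 stood above scramble in mRNA KD and were not called in circ KD, and Lig1 was called in both. Rpa2 and Rfc4, higher than scramble in both knockdowns, were lower in circ KD than in mRNA KD (-0.79 ± 0.14 (adjusted p = 9.81e-04) and -0.73 ± 0.15 (adjusted p = 0.00386)).

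Ccne1 was the 1 gene of the 57 higher in circ KD than in mRNA KD (log2 fold change 0.95 ± 0.23, adjusted p = 0.00935). The 5 genes that were not called between the knockdowns were Rfc1 (-0.09 ± 0.13), Pold2 (0.08 ± 0.12), Pole (-0.39 ± 0.19), Rpa3 (-0.33 ± 0.15) and E2f2 (-0.30 ± 0.23). A call was kept under every one of 20 alternatives by 39 of the 52 genes called here, by 6 of the 29 called in circ KD against scramble (Rpa2, Dna2, Dut, Tyms, Ung and E2f1) and by 2 of the 18 called in mRNA KD (Rpa2 and Rfc4). These 6 and 2 are the same calls that were left in the fit with the Xist level, which has little power against scramble. Leaving out 1 library ended the direct calls of Orc1, Mcm6, Cdc7, Gins3, Rfc2, Rfc5, E2f8, Timeless and Chaf1a, whose log2 fold changes in those fits lay between -1.17 and -0.23. With the Xist level as a covariate the direct calls of Mcm6 (adjusted p = 0.0625) and Timeless (adjusted p = 0.0698) ended, and that of Timeless also ended with RLE size factors (adjusted p = 0.0527).

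Further replication genes outside the 57 had medians of the same signs. Of 48 such genes (other ORC, polymerase and ribonuclease H2 subunits, origin firing factors, pocket proteins and other E2F and DP factors), 15 fell and 1 rose in circ KD (median log2 fold change -0.25), 10 rose and 3 fell in mRNA KD (0.18), and 29 were lower and 2 higher in circ KD than in mRNA KD (-0.48). In circ KD 31.25% thus fell and 2.08% rose, against 13.0% and 14.1% of all genes tested. In mRNA KD 20.8% rose and 6.25% fell, against 8.92% and 9.09% of all genes. Between the knockdowns 60.4% were lower and 4.17% higher in circ KD, against 12.3% and 13.8% of all genes. E2f6, a repressor of the E2F family, stood at 33.5, 29.7 and 29.04 CPM in circ KD, 46.7, 37.9 and 41.02 CPM in mRNA KD and 48.5, 52.05 and 56.9 CPM in scramble. It fell in both, by -0.77 ± 0.10 (adjusted p = 1.42e-04) in circ KD and -0.33 ± 0.10 (adjusted p = 0.0434) in mRNA KD. Its call in mRNA KD ended without circ KD replicate 3 (-0.33), mRNA KD replicate 2 or 3 (-0.26 and -0.31) or scramble replicate 2 or 3 (-0.33 and -0.26). That call also ended with the Xist level as a covariate (adjusted p = 0.256), a replicate block, a minimum change of 1.2-fold or counts thinned to the smallest library, and was kept in 11 of 20 alternatives. E2f3, the third activating E2F, stood at 43.98, 49.2 and 45.4 CPM in circ KD, 52.7, 45.1 and 47.4 CPM in mRNA KD and 27.7, 30.7 and 36.2 CPM in scramble. Unlike E2f1 and E2f2 it was above scramble in every library of both knockdowns (0.55 ± 0.11 (adjusted p = 0.00222) in circ KD and 0.62 ± 0.11 (adjusted p = 0.00172) in mRNA KD). Both calls of E2f3 ended with the Xist level as a covariate (adjusted p = 0.125 in circ KD and 0.0574 in mRNA KD). Tfdp2, a DP partner of the E2Fs, stood at 52.2, 54.8 and 62.98 CPM in circ KD, 45.2, 45.8 and 49.7 CPM in mRNA KD and 72.3, 81.6 and 90.1 CPM in scramble. It was below scramble in every library of both (-0.52 ± 0.10 (adjusted p = 0.00178) in circ KD and -0.80 ± 0.10 (adjusted p = 1.62e-04) in mRNA KD). In the fit with Xist the call of Tfdp2 ended in circ KD (adjusted p = 0.231) and was kept in mRNA KD (adjusted p = 0.0271). Rnaseh2a, the catalytic subunit of ribonuclease H2, fell in circ KD (log2 fold change -0.57 ± 0.10, adjusted p = 7.78e-04), and between the knockdowns Rnaseh2a, Rnaseh2c, Uhrf1 and Top1 were lower in circ KD, with log2 fold changes of -0.85, -1.09, -1.09 and -0.50. The call of Rnaseh2a against scramble ended with the Xist level as a covariate (adjusted p = 0.0821), and these 4 calls between the knockdowns were kept in 20 of 20 alternatives. In mRNA KD Chtf8, part of an alternative clamp loader, fell (log2 fold change -0.48 ± 0.09, adjusted p = 0.00188) and Pole4, a small subunit of polymerase epsilon, rose (log2 fold change 0.47 ± 0.10, adjusted p = 0.00759). Both of these calls ended with the Xist level as a covariate (adjusted p = 0.0807 for Chtf8 and 0.226 for Pole4), and that of Pole4 also with a minimum change of 1.2-fold (adjusted p = 0.101).

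Other lists were counted beside the replication genes, and their part in the results was not tested. Of all genes tested, 14.1% rose and 13.0% fell in circ KD, and 8.92% rose and 9.09% fell in mRNA KD. Of 34 genes of G2 and M phase, 3 fell (8.82%, where 13.0% of all genes tested fell) and none rose in circ KD, and 11 rose (32.4%, where 8.92% of all genes rose) and none fell in mRNA KD. In this list 27 were lower in circ KD than in mRNA KD (79.4%, where 12.3% of all genes were lower). Of 17 replication-dependent histone genes tested, whose mRNAs mostly lack a polyA tail, 7 rose (41.2%) and none fell in circ KD and none was called in mRNA KD. Markers of apical progenitors rose in 17 of 24 tested cases in circ KD (70.8%) and in 11 of 24 in mRNA KD (45.8%), with none lower in either. Their summed level was 3151 to 3495 CPM in circ KD, 2000 to 2510 CPM in mRNA KD and 1819 to 2052 CPM in scramble. Replication genes and apical progenitor markers thus had different orders of the groups. Of 18 basal progenitor markers, 8 fell (44.4%) and 2 rose (11.1%) in circ KD and 4 fell (22.2%) and 1 rose (5.56%) in mRNA KD. Their summed levels were 2121 to 2561 CPM in circ KD, 2518 to 2699 CPM in mRNA KD and 2569 to 2872 CPM in scramble. Between the knockdowns 10 of 24 apical progenitor markers were higher in circ KD (41.7%) and 2 lower (8.33%). Of the 18 basal progenitor markers 5 were higher (27.8%) and 7 lower (38.9%), where 13.8% and 12.3% of all genes were called. Of 20 markers of newborn neurons, 6 fell (30%) and 3 rose (15%) in circ KD and 5 fell (25%) and 2 rose (10%) in mRNA KD. They summed to 10063 to 11140 CPM in circ KD, 9523 to 10791 CPM in mRNA KD and 11295 to 13021 CPM in scramble. Of 8 CDK inhibitor and cell cycle exit genes tested, 1 rose and 1 fell in each knockdown (12.5% each way). Of 12 p53 target genes 1 rose and 1 fell in circ KD (8.33% each way), where 14.1% of all genes rose and 13.0% fell. In mRNA KD 3 p53 target genes rose and 3 fell (25% each way), where 8.92% of all genes rose and 9.09% fell. Counts of 1 gene each way are too small to be read as above or below the shares of all genes. Of 5 D cyclins and partners, which act upstream of the E2Fs, 1 rose and 1 fell in circ KD (20% each way). In mRNA KD 1 of them rose (20%) and 2 fell (40%), and the median log2 fold changes were -0.03 in circ KD and -0.11 in mRNA KD.

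Markers of microglia and macrophages summed to 7.51 to 13.6 CPM in circ KD, 3.63 to 8.73 CPM in mRNA KD and 2.81 to 5.07 CPM in scramble. In circ KD 2 of 8 tested markers were higher (25%, where 14.1% of all genes rose). Cajal-Retzius neuron markers summed to 74.7 to 249.98 CPM in circ KD, 14.2 to 23.9 CPM in mRNA KD and 21.98 to 57.6 CPM in scramble. Of 5 tested, 2 were higher in circ KD (40%) and none was called in mRNA KD. Of 6 tested markers of ventral inhibitory neurons 3 fell (50%, where 13.0% of all genes fell) and 1 rose (16.7%) in circ KD, and none was called in mRNA KD. Their summed levels were 34.0 to 46.9 CPM in circ KD, 21.6 to 30.7 CPM in mRNA KD and 17.97 to 36.998 CPM in scramble. Of 11 listed ventral markers 8 stayed under 1 CPM in every library, as did 4 of 6 listed Cajal-Retzius markers. The sums of these 2 lists thus rest on few genes. In circ KD 5 of the 6 tested ventral markers had a negative log2 fold change (median -0.97), although their sum was not lower than in scramble. Erythroid markers summed to 9.003 to 25.6 CPM in circ KD, 6.39 to 6.59 CPM in mRNA KD and 9.20 to 14.8 CPM in scramble, with none of 5 called against scramble. Between the knockdowns 3 of these 5 were higher in circ KD (60%, where 13.8% of all genes were higher). So were 2 of the 5 tested Cajal-Retzius markers (40%), and none of either list was lower. Pericyte markers summed to at most 5.99 CPM and oligodendrocyte precursor markers to at most 2.79 CPM in any library. Endothelial markers summed to at most 4.51 CPM and meningeal fibroblast markers to at most 1.77 CPM in any library, and no marker of a cell type list was at 0 in all 9 libraries.

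**Figure D4:**
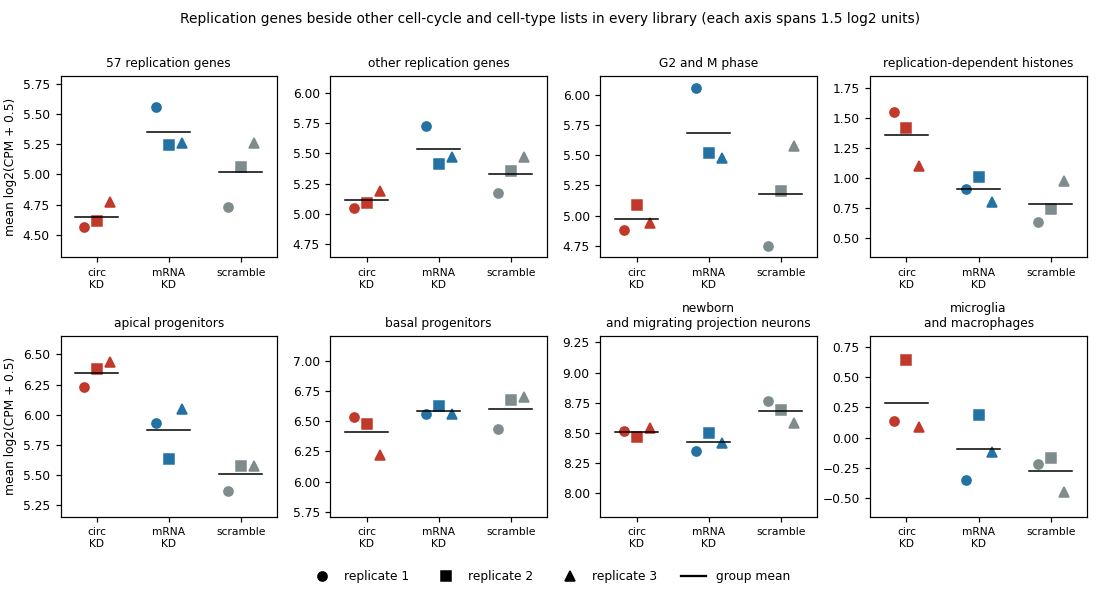
Mean log2(CPM + 0.5) in every library of the 57 replication genes and of 7 other lists, with a point per library and a line at the group mean; each vertical axis spans 1.5 log2 units. By group mean the replication genes and the G2 and M phase genes lie highest in mRNA KD, although scramble replicate 3 lies above mRNA KD replicates 2 and 3 in both lists. Apical progenitor markers lie highest in circ KD in every library.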

How the data were processed

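RNA of GFP+ cortical cells was read in 9 polyA-selected Illumina TruSeq libraries, 3 per group. The authors deposited whole read counts per gene without normalization, 53379 Ensembl IDs in all. Per the submitters' processing notes, the tools were STAR 2.4.2a, bcl2fastq 2.17.1.14 and DESeq2 and the build was mm10. Which program counted, with which annotation release, strand setting and filter, is not given in the sources used here. IDs were joined to GENCODE M21 (GRCm38) without their version suffix, which gave 53274 IDs a symbol and left 105 without, and coordinates and exon overlaps come from that annotation.

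In edgeR 4.0.16, filterByExpr (minimum count 10) set the genes tested, TMM scaled the libraries, and 1 quasi-likelihood model with a term per group took in all 9 libraries, which leaves 6 residual degrees of freedom. The quasi-likelihood F test, 2-sided, compared each pair of groups, with Benjamini-Hochberg adjustment over 17760 genes and a threshold of 0.05. The standard error is the size of the log2 fold change over the root of its F. CPM is the count over the TMM-scaled total. The common biological coefficient of variation was 13.9%. Simulated counts with known changes were used to check the fit. Of genes changed 1.5-fold, 43% were recovered for circ KD against scramble, 48% for mRNA KD against scramble and 53% between the knockdowns. Of genes changed 2-fold, 76%, 60% and 74% were recovered in the same order. A gene that was not called can therefore still have changed by such amounts.

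The 57 genes, their 9 steps and the other lists were chosen with earlier results of these data known. Values in every library are given, by rule, for the 3 genes of a step with the smallest p in each knockdown against scramble (2 in steps of 3), for genes called in opposite directions and for the 5 smallest p between the knockdowns. Of other replication genes the 4 with the smallest p per comparison are named. Alternatives were RLE and upper-quartile factors, limma-voom (limma 3.58.1), the DESeq2 1.42.0 Wald test, the table unfiltered or filtered on 1 CPM in 3 libraries, a fit of only the 6 libraries compared, a replicate block, the Xist level as a covariate, a minimum change of 1.2-fold, counts thinned to the smallest library, and each library left out.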

Additional observations from a re-analysis of the deposited data

How the results depend on the processing

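No called fold change of the 57 genes changed sign under any of the 20 alternatives. With the Xist level as a covariate, the circSlc45a4 knockdown against scramble kept 1199 calls over all genes, 1 of the 57 genes higher and 5 lower, and the Slc45a4 mRNA knockdown against scramble kept 738, with 2 of the 57 higher and 0 lower. Against a minimum change of 1.2-fold, calls over all genes were 2430 (circSlc45a4 knockdown), 1197 (Slc45a4 mRNA knockdown) and 2073 (between the knockdowns), with 10 of the 57 lower in the circSlc45a4 knockdown and 8 higher and 1 lower in the Slc45a4 mRNA knockdown. Without a filter, 28 of the 57 were higher in the Slc45a4 mRNA knockdown. With only the 6 libraries compared, 1 was lower there. The cause of these differences was not tested, beyond what the settings themselves change.

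Leaving out 1 library in turn gave, for the circSlc45a4 knockdown against scramble, 3386 to 5548 calls over all genes, 2 to 3 of the 57 higher and 11 to 35 lower, with a median of -0.52 to -0.30. For the Slc45a4 mRNA knockdown against scramble it gave 1760 to 3083 calls, 8 to 23 higher and 1 to 4 lower, with a median of 0.20 to 0.45. Between the knockdowns it gave 3059 to 4610 calls, 1 higher and 44 to 51 lower, with a median of -0.85 to -0.66.

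Deviations of same-numbered libraries from their group means correlated at -0.14 to 0.12. Between a knockdown and scramble the values were -0.14 to 0.03 for the same number and -0.12 to 0.18 for different numbers. Between the knockdowns they were 0.08 to 0.12 for the same number and -0.07 to -0.03 for different numbers. These correlations are small, and whether replicate numbers mark pairs of samples was not tested. With a replicate block, the circSlc45a4 knockdown had 23 of the 57 lower and 3 higher, the Slc45a4 mRNA knockdown 14 higher and 1 lower, and 48 were lower between the knockdowns.

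Scramble, which holds the 3 shallowest libraries, was the most variable group in these genes, with a median coefficient of variation of 17.4%. Over all genes tested it was the least variable, at 9.93% against 10.7% in the circSlc45a4 knockdown and 12.5% in the Slc45a4 mRNA knockdown. The part of depth in this was not tested.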
